A study of Rattus norvegicus with 18 samples.

Results

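The immediate early transcription factors described here are Fos, Fosl1, Jun, Junb, Atf3, Egr1, Nr4a1, Nr4a3 and Myc, read in the fractured and unfractured rat femur. These 9 genes were chosen by name, and their probe sets are those to which the array's annotation gives that symbol and no other. This yielded 22 probe sets for the 9 genes, out of 8740 probe sets and 4736 genes with a probe set of their own. Where a gene had several probe sets, the one with the highest mean log2 signal over all arrays leads and stands for the gene. There was 1 probe set for Fosl1 and Atf3, 2 for Junb, Nr4a1 and Myc, 3 for Fos and Nr4a3, and 4 for Jun and Egr1.

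The arrays were Affymetrix rat genome arrays of total RNA from the middle of the femoral shaft of female Sprague-Dawley rats, a segment that held callus, cortical bone and marrow together. The fractured femora had a closed transverse break held by a rod inside the marrow cavity and were taken after 3 days or after 1, 2, 4 or 6 weeks. The rats with no fracture were the controls at time 0. The rats were young (6 weeks old at fracture), adult (26 weeks) or older (52 weeks), with 1 array for each age at each time, 18 arrays in all, and each array read RNA pooled from 2 rats. A time therefore had 3 arrays, one of each age, and these 3 ages serve as its replicates. For the comparisons of times, the p-values rest on the spread left over all 18 arrays after a fit of time and age. That spread mixes differences between pools with differences between ages in their time course. At a single time, a difference between ages cannot be told apart from one between pools. The values are signal intensity with every array scaled to the same mean, so a value is relative to the rest of that array. In a mixed segment, fewer cells of a type and less of a transcript per cell cannot be told apart.

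Immediate early genes are transcribed within minutes of a growth factor, cytokine or mechanical stimulus from factors already present in the cell, and their transcripts are short-lived. Fos proteins pair with Jun proteins to form AP-1, which binds promoters of proteases, cytokines and matrix genes. Egr1 is a zinc finger factor that binds GC-rich sites, Nr4a1 and Nr4a3 are orphan nuclear receptors, Atf3 is a stress-induced factor of the ATF/CREB family, and Myc pairs with Max to drive genes of growth. In mice, Fos is required for the formation of osteoclasts, and an excess of Fosl1 raises bone mass. The first time read here, 3 days, lies long after such a first response.

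At 3 days, 7 of the 9 genes were higher than with no fracture and none was lower. They were Fos, Jun, Junb, Egr1, Nr4a3, Atf3 and Myc, with log2 changes from 1.10 for Myc to 2.22 for Nr4a3. Across the array, 20% of 4736 genes (947) were called higher in this comparison. The median change of the 9 genes was 1.30 on the log2 scale, and that of all genes was -0.10. Fosl1 and Nr4a1 did not pass the test, although Fosl1 did under both other scalings of the arrays. The same 7 genes were higher at 1 week, against 18.4% of all genes, and 6 of them, without Myc, at 2 weeks, against 16.2%. At 4 weeks and at 6 weeks the genes that remained called were Fos and Egr1, 2 of 9 at each time, against 12.3% and 8.74% of all genes, and at 4 weeks neither passed when the arrays were centred on their medians. A gene was called where limma's adjusted p lay below 0.05 in a fit of time and age over all 18 arrays. Over the 6 times, limma's F test called the leading probe sets of 8 of the 9 genes, where the background was 39.4% of genes. The exception was the leading probe set of Jun (adjusted p = 0.059). The calls at 3 days depended least on any one age, with 6 to 7 genes called when each age was left out in turn. The later counts did depend on single ages. At 1 week 7 genes were called without the young arrays, 2 without the adult arrays (Junb and Atf3) and the same 2 without the older arrays. At 2 weeks the counts were 6, 2 and 1, at 4 weeks 4, 0 and 0, and at 6 weeks 3, 0 and 0. In terms of single arrays, 7 genes had no overlap with the intact range at 3 days (22.8% of all genes had all 3 arrays higher), 7 at 1 week (22.7%), 6 at 2 weeks (19.8%), 5 at 4 weeks (16.4%) and 5 at 6 weeks (12.9%). The 5 genes at 6 weeks were Fos, Jun, Junb, Egr1 and Nr4a3.

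**Figure D1:**
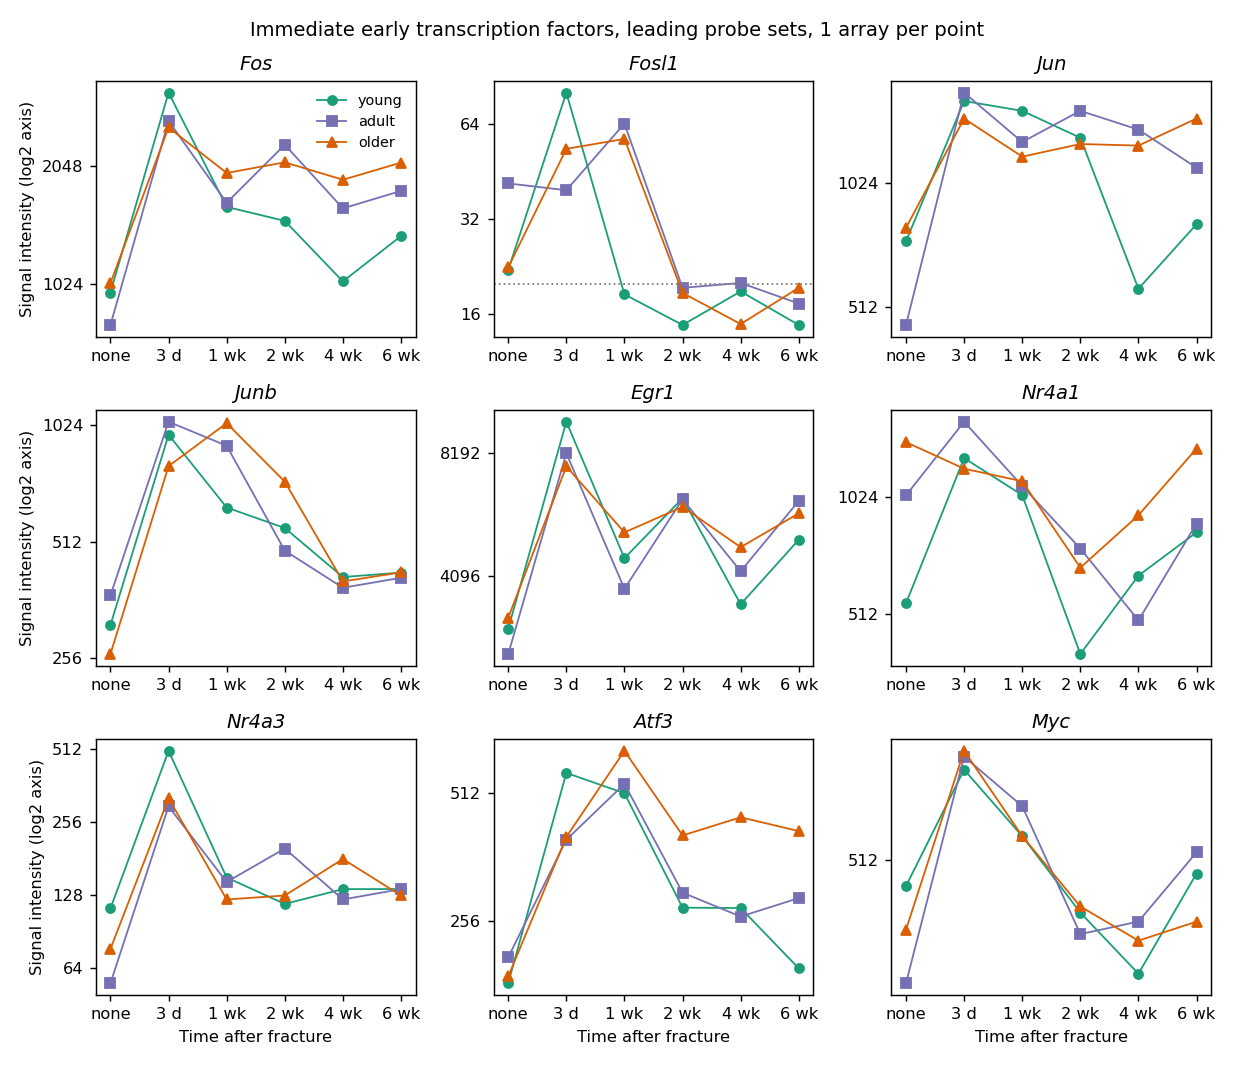
Signal intensity of the leading probe set of each gene (vertical axis, log2 scale, its range set per panel) with no fracture (none) and at 5 times after fracture (horizontal axis), 1 array per point, for young (circles), adult (squares) and older rats (triangles). The 3-day signals of Fos, Jun, Junb, Egr1, Nr4a3, Atf3 and Myc lie above all 3 signals with no fracture, and the dotted line in the Fosl1 panel marks the floor of 20.

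The make-up of the segment and the RNA moved with fracture. At 3 days the summed signal of 8 skeletal muscle markers was 27440 to 34755, against 97144 to 104751 with no fracture, and that of 5 erythroid markers was 4760 to 10824, against 41789 to 74614. The 3 of 7 listed neutrophil markers that were measured summed to 877 to 12838, against 35689 to 49934. The 3 of 7 macrophage markers measured did not move together. Cd14 rose by 1.67 (adjusted p = 0.00012), Lyz2 fell by 0.78 (adjusted p = 0.035) and Csf1r stood at 0.32 (adjusted p = 0.14), and their sum, which is mostly Lyz2, was 9000 to 10475, against 14620 to 16554. The 5 cartilage markers summed to 2209 to 2651, mostly Acan, against 160 to 735. Acan and Comp were called higher (adjusted p = 0.0024 and 0.013). Col2a1 did not pass (adjusted p = 0.086), and Col10a1 and Col9a1 stood at 0.00 and 0.10. The 7 markers of fibroblasts and osteoblasts summed to 69169 to 87292, against 18491 to 86481. That sum went from 86481 with no fracture to 87292 at 3 days in young rats, from 32898 to 72503 in adult rats and from 18491 to 69169 in older rats. No marker was below the floor on all 3 arrays of a time. The part of these shifts in the changes of the 9 genes was not tested. The ratio of 3′ to 5′ actin signal is a sign of RNA integrity. It was 1.48 to 2.72 on fractured arrays and 2.10 to 2.61 on intact ones. At 3 days, 1 week, 2 weeks and 4 weeks every array had a lower ratio than every intact one. The highest ratio at those times was 1.90, in young rats at 4 weeks. The ratio overlapped the intact range only at 6 weeks, when it was 1.89 to 2.72. With this ratio as a covariate, 5 of the 9 genes were still called at 3 days (Fos, Junb, Egr1, Nr4a3 and Myc), 2 at 1 week, 1 at 2 weeks, 0 at 4 weeks and 2 at 6 weeks. Among the lost calls, Jun at 3 days went from 1.30 to 1.15 (adjusted p = 0.20) and Fos at 1 week from 0.89 to 0.81 (adjusted p = 0.11). Junb at 2 weeks went from 0.90 to 0.94 (adjusted p = 0.10). Atf3 went from 1.22 to 0.64 at 3 days (adjusted p = 0.26) and from 0.74 to 0.23 at 2 weeks (adjusted p = 0.74). The ratios at these times did not overlap the intact ones, and the part of the ratio in the changes was not tested.

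Promoter sequences of 4 of the 9 genes, Fosl1, Junb, Egr1 and Nr4a1, were held by the RefSeq table for the rat build GRCr8, and they are shown because a pair of them (Egr1 and Junb) were called higher at 3 days and the other pair was not, on the signals as deposited. The 250 bases before each annotated transcript start are given from 5′ to 3′. The Nr4a1 start lies inside the annotated gene and not at its first base. Capitals mark the CArG box, the site of serum response factor, and the half-site of the cAMP response element (TGACG, or CGTCA on the other strand), the site of CREB and ATF proteins.
Egr1, chr18:26736828-26737077 (+ strand): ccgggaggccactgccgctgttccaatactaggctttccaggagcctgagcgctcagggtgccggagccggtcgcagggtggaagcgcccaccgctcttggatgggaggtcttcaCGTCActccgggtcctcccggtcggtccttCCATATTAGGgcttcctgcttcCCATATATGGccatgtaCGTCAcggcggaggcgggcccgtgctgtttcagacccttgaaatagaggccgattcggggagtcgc
Junb, chr19:40080876-40081125 (+ strand): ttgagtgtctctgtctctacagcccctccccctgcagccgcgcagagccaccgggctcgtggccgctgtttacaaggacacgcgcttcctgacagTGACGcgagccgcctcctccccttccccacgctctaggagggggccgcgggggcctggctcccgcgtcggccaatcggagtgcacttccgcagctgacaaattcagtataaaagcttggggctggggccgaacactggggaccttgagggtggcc
Fosl1, chr1:212183635-212183884 (+ strand): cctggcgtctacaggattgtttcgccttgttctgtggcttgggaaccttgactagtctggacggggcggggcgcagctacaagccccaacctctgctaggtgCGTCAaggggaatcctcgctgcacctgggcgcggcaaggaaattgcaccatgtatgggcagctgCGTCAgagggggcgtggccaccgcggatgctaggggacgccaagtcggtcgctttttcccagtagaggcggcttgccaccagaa
Nr4a1, chr7:134259888-134260137 (+ strand): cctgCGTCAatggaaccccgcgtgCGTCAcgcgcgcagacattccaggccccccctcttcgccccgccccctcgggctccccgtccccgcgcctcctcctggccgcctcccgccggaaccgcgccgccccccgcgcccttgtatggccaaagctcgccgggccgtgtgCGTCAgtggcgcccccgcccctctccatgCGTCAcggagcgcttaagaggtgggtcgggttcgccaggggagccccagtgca
The Egr1 stretch held 2 CArG boxes, CCATATTAGG and CCATATATGG, and 2 half-sites. Among 33469 rat promoters of 300 bases (250 before and 50 after the start), 1.64% held a CArG box and 21.2% a half-site. The Junb stretch held 1 half-site, that of Fosl1 held 2 and that of Nr4a1 held 4. The relation of these counts to the changes at 3 days was not tested. The full palindrome TGACGTCA (1.83% of promoters), which contains the half-site on both strands, was in none of the 4. Neither the AP-1 site TGANTCA (7.33%) nor the NR4A monomer site AAAGGTCA (1.43%), searched on both strands, was in any of them. The Egr1 site GCGNGGGCG (4.98%) had 1 match, in Nr4a1. These are matches of letters in a short window and were not measured as binding.

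Fos, the founding AP-1 subunit, was read brightly on every array. Its signals at 3 days were 3134, 2657 and 2558 in young, adult and older rats, against 975, 807 and 1031 with no fracture. All 3 fractured femora were above all 3 intact ones. The change was 1.57 on the log2 scale (SE 0.20, adjusted p = 0.00015), or 2.97-fold. Fos then stayed above the intact level at every time, with changes of 0.89 at 1 week, 1.05 at 2 weeks, 0.65 at 4 weeks (adjusted p = 0.039) and 0.87 at 6 weeks (adjusted p = 0.015). At 4 weeks the separation was narrow, since the young rats had 1041 against 1031 in the highest intact sample. The signals fell below those of 3 days by 0.92 at 4 weeks (adjusted p = 0.011) and by 0.70 at 6 weeks (adjusted p = 0.029). Without the young arrays these changes were -0.59 and -0.44, and neither passed (adjusted p = 0.051 and 0.097). Ordered by mean signal, 3 days stood above 2 weeks, 1 week, 6 weeks, 4 weeks and no fracture, and 3 of the 5 pairs of neighbours in that order overlapped.

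Jun, the main partner of Fos, had signals of 1624, 1703 and 1472 at 3 days in young, adult and older rats, against 739, 462 and 797 with no fracture. The groups did not overlap, and the change was 1.30 (SE 0.32, adjusted p = 0.0079). It was called at 1 week (1.04, adjusted p = 0.026) and 2 weeks (1.08, adjusted p = 0.024). At 4 weeks the 3 ages had parted, at 566, 1383 and 1265 from the youngest to the oldest, and the change of 0.62 did not pass (adjusted p = 0.20, 95% interval -0.08 to 1.32). With the times ordered by mean signal, all 5 pairs of neighbours shared part of their range. No later time was called different from 3 days for this leading probe set of Jun.

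Junb is a Jun protein that can oppose Jun on some promoters. Signals at 3 days were 966, 1044 and 802 in young, adult and older rats, against 312, 372 and 263 with no fracture, a change of 1.58 (SE 0.20, adjusted p = 0.00015). At 1 week the older rats were highest, with 627, 905 and 1035 in young, adult and older rats. The change was 1.42 at 1 week (adjusted p = 0.00043) and 0.90 at 2 weeks (adjusted p = 0.0058). By 4 weeks the 3 ages lay close together at 415, 389.5 and 404 and by 6 weeks at 426, 413 and 427. These were still above every intact sample, but the changes of 0.37 and 0.43 did not pass (adjusted p = 0.22 and 0.17). Relative to 3 days, Junb fell by 1.21 at 4 weeks and fell by 1.14 at 6 weeks on the log2 scale (adjusted p = 0.0028 and 0.0027).

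Atf3, which heterodimerises with Jun proteins, was the one gene of the 9 whose mean signal was highest at 1 week. Its signals at 1 week were 513, 539 and 646 in young, adult and older rats, against 182, 209.6 and 189 with no fracture, a change of 1.54 (SE 0.24, adjusted p = 0.00075). At 3 days they were 572, 398 and 404, a change of 1.22 (adjusted p = 0.0022). The difference between 1 week and 3 days was 0.32 with a 95% interval of -0.21 to 0.84, so the order of these times was not settled. Atf3 was still called at 2 weeks (0.74, adjusted p = 0.035) and stood at 0.72 at 4 weeks (adjusted p = 0.054). With the actin ratio as a covariate the changes at 3 days, 1 week and 2 weeks were 0.64, 1.06 and 0.23, and none passed.

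Fosl1, the Fos family member whose transcript usually appears later than that of Fos, was near the limit of the array. At 3 days its signals were 80.4, 39.5 and 53.4 in young, adult and older rats, against 22.1, 41.5 and 22.5 with no fracture. The adult rats did not share the difference, and the change of 1.01 missed the threshold (SE 0.40, adjusted p = 0.064). It passed with quantile normalization (1.29, adjusted p = 0.020) and with median centring (1.06, adjusted p = 0.032), and stood at 0.54 with the actin ratio as a covariate (adjusted p = 0.67). At 1 week adult and older rats had 64.2 and 57.4, while young rats had 18.5. From 2 weeks on, 8 of 9 arrays lay below the floor of 20 and the other was at 20.1, so these levels have no order. Against 3 days, Fosl1 fell by 1.47 on the log2 scale at 4 weeks and at 6 weeks (adjusted p = 0.033 and 0.024), with the later values set by the floor.

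**Figure D2:**
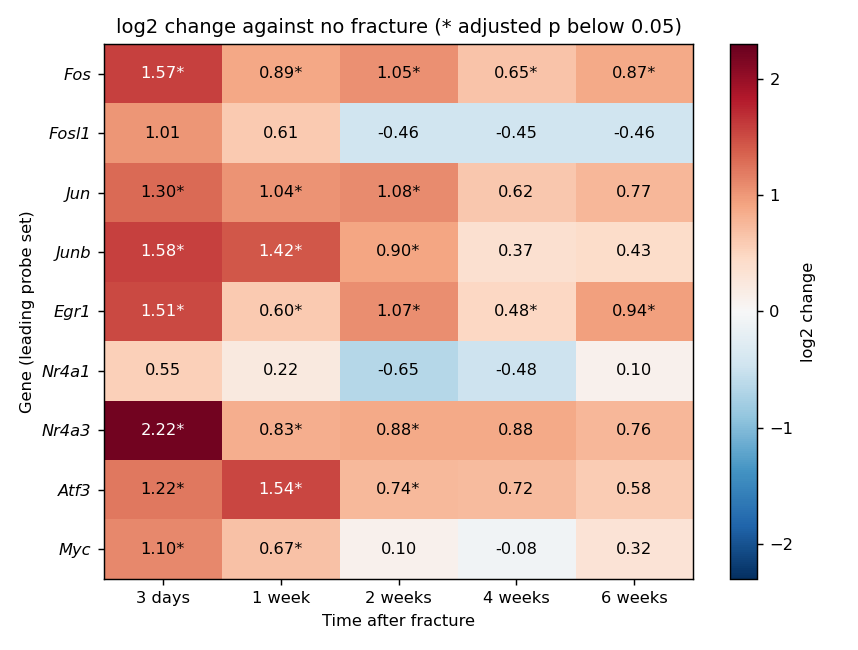
log2 change of the leading probe set of each gene (rows) against no fracture at 5 times (columns), 3 arrays on each side, with red for higher, blue for lower and a star where limma's adjusted p was below 0.05. Stars fill 7 rows at 3 days and 1 week, 6 at 2 weeks and the rows of Fos and Egr1 at 4 and 6 weeks.

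Signals of different probe sets are not comparable as amounts, and Egr1 is described here on its own scale. At 3 days Egr1 had 9768, 8184 and 7596 in young, adult and older rats, against 3050.2, 2645 and 3244 with no fracture. The change was 1.51 (SE 0.15), with the lowest adjusted p of the leading probe sets in this comparison (3.3e-05). On this leading probe set, the course after 3 days was not a steady decline. The change was 0.60 at 1 week, 1.07 at 2 weeks, 0.48 at 4 weeks and 0.94 at 6 weeks, each of them called (adjusted p = 0.0096, 0.00050, 0.041 and 0.0031). Against 3 days, Egr1 fell by 0.91 at 1 week (adjusted p = 0.0071), by 1.03 at 4 weeks (adjusted p = 0.0012) and by 0.57 at 6 weeks (adjusted p = 0.020). At 2 weeks the signals of 6352, 6317 and 6052 lay close together and above all 3 of 1 week, which were 4535, 3817 and 5243.

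Nr4a3 showed the largest change of the 9 leading probe sets at 3 days and dropped early. Its signals at 3 days were 505, 298 and 322 in young, adult and older rats, against 113, 55.3 and 76.6 with no fracture, a change of 2.22 (SE 0.29, adjusted p = 0.00018), or 4.66-fold. By 1 week it stood at 151, 145 and 123, and relative to 3 days it fell by 1.39 on the log2 scale (adjusted p = 0.024). It remained above the intact level at 1 week (0.83, adjusted p = 0.044) and 2 weeks (0.88, adjusted p = 0.037), and the same change of 0.88 at 4 weeks did not pass (adjusted p = 0.051). Without the adult arrays the changes were 0.55 and 0.40 (adjusted p = 0.26 and 0.41), with a floor of 100 they were 0.42 and 0.47 (adjusted p = 0.23 and 0.19), and the call at 1 week was lost under both other scalings. Every later array lay between 118 and 199, above the highest intact signal of 113.

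Nr4a1, its close relative, ranged widely among the intact femora. Its signals at 3 days were 1285, 1593 and 1208 in young, adult and older rats, against 546, 1032 and 1412 with no fracture. The older rats were thus lower at 3 days than with no fracture while the other 2 ages were higher, and the change of 0.55 did not pass (SE 0.28, adjusted p = 0.15, 95% interval -0.08 to 1.17). After 3 days the signal dropped to 404.5, 754 and 673 at 2 weeks in young, adult and older rats, so that it fell by 1.20 on the log2 scale relative to 3 days (adjusted p = 0.031). It fell by 1.03 at 4 weeks on the same footing (adjusted p = 0.035), and by 6 weeks it stood at 829.7, 874 and 1360.1.

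Myc signals at 3 days were 761, 805 and 826 in young, adult and older rats, against 457.5, 299 and 378 with no fracture. The 3 ages lay close together at 3 days, and the change was 1.10 (SE 0.16, adjusted p = 0.00033). The change was 0.67 at 1 week (adjusted p = 0.0069) and 0.10 at 2 weeks (adjusted p = 0.71, 95% interval -0.25 to 0.44). Against 3 days, Myc fell by 1.00 at 2 weeks (adjusted p = 0.0044), by 1.17 at 4 weeks (adjusted p = 0.00077) and by 0.78 at 6 weeks (adjusted p = 0.0063).

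Set against 3 days, the later times showed 2 of the 9 genes lower at 1 week (Egr1 and Nr4a3, background 1.67% of genes lower), 3 at 2 weeks (Nr4a1, Nr4a3 and Myc, 3.63%), 7 at 4 weeks (all but Jun and Atf3, 6.59%) and 6 at 6 weeks (all but Jun, Nr4a1 and Atf3, 11.0%). None was higher at any of these times. These comparisons share the 3-day arrays. Without the adult or older arrays, or the young ones, the counts became 0 at 1 week, 0 to 1 at 2 weeks, 2 to 3 at 4 weeks and 1 to 3 at 6 weeks. The median over the 9 genes was -0.40, -0.68, -1.03 and -0.70 at 1, 2, 4 and 6 weeks, against 0.00, 0.00, 0.00 and 0.01 for all genes.

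Most of the other probe sets of these genes moved the same way as the leading one, by other amounts. Both other Fos probe sets were called at every time. The one that shares its source sequence with the leading Fos probe set, X06769cds_at, had 904, 815 and 714 at 3 days in young, adult and older rats, against 75.3, 36.5 and 26.0 with no fracture, a change of 4.28 (SE 0.52, adjusted p = 0.00012). The third, X03347cds_g_at, which the annotation gives to Fos, changed by 2.79 at 3 days (adjusted p = 4.1e-05). The fold change of Fos thus ran from 2.97 to 19.5 with the probe set. Relative to 3 days, X06769cds_at stood at -1.59 at 4 weeks, which did not pass (adjusted p = 0.070), and at -1.81 at 6 weeks (adjusted p = 0.030). X03347cds_g_at was called lower than at 3 days at both of these times (adjusted p = 0.015 and 0.0048). For Myc, the dimmer probe set Y00396mRNA_at, again of the same source sequence, was called at all 5 times, with changes of 2.45, 1.98, 1.61, 1.07 and 1.44, where the leading one was called at 3 days and 1 week. The second Nr4a1 probe set, U17254_at, changed by 0.69 at 3 days and missed the threshold as well (adjusted p = 0.058). Relative to 3 days, U17254_at stood at -0.87 at 2 weeks and -0.77 at 4 weeks. Neither passed (adjusted p = 0.085 and 0.083), unlike the falls of the leading Nr4a1 probe set. The second Junb probe set, X54686cds_at, was called at 3 days, 1 week, 2 weeks and 4 weeks (1.31, 1.38, 1.13 and 0.70). Relative to 3 days, X54686cds_at stood at -0.61 at 4 weeks, which did not pass (adjusted p = 0.078), and at -0.88 at 6 weeks (adjusted p = 0.012). For Jun, rc_AA945867_at was called at 3 days, 1 week, 2 weeks and 6 weeks (1.31, 1.24, 1.42 and 1.09). The leading Jun probe set did not pass at 6 weeks (adjusted p = 0.13). By limma's F test over the 6 times rc_AA945867_at was called (adjusted p = 0.0086), and so was X17163cds_s_at of Jun (adjusted p = 0.015). Over the 22 probe sets, 16 were called higher and 1 lower at 3 days, where 39.3% of all 8740 probe sets were called in either direction.

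Some probe sets disagreed with the leading one. For Egr1, U75398_s_at had 159, 162 and 116 at 3 days in young, adult and older rats, against 159.9, 330.1 and 183 with no fracture, a change of -0.57 that did not pass (adjusted p = 0.18), and it stayed between -0.34 and -0.58 at every time. The other dimmer Egr1 probe sets rose at 3 days, M18416_at by 1.34 (adjusted p = 0.011) and rc_AI176662_s_at by 1.75 (adjusted p = 0.0010). At 1, 2, 4 and 6 weeks M18416_at stood at 0.44, 0.98, 0.64 and 0.85 and was not called. At the same times rc_AI176662_s_at stood at 1.10, 1.16, 1.38 and 1.16 and was called at each. Neither was called different from 3 days at a later time, unlike the leading probe set. For Jun, rc_AA944014_at changed by 0.38 at 3 days (adjusted p = 0.41) and passed at no time, while X17163cds_s_at rose by 2.17 at 3 days (adjusted p = 0.020) and was back at -0.27 at 6 weeks (adjusted p = 0.87). Relative to 3 days, the change of X17163cds_s_at at 6 weeks was -2.44 and was called (adjusted p = 0.021). For Nr4a3, rc_AI176710_at was as high at 1 week as at 3 days, with 133.5, 259.6 and 256 at 1 week and 196, 216 and 209.5 at 3 days in young, adult and older rats, against 15.9, 42.4 and 23.2 with no fracture. Its change was 2.94 at both times, where the leading probe set had lost most of its rise by 1 week. The last Nr4a3 probe set, rc_AI145834_at, was called lower at 3 days (-0.40, adjusted p = 0.036), at signals of 13.2, 13.8 and 9.2 against 29.2, 31.2 and 13.6 with no fracture. Those 3-day values are below the floor, so that change carries no size.

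**Figure D3:**
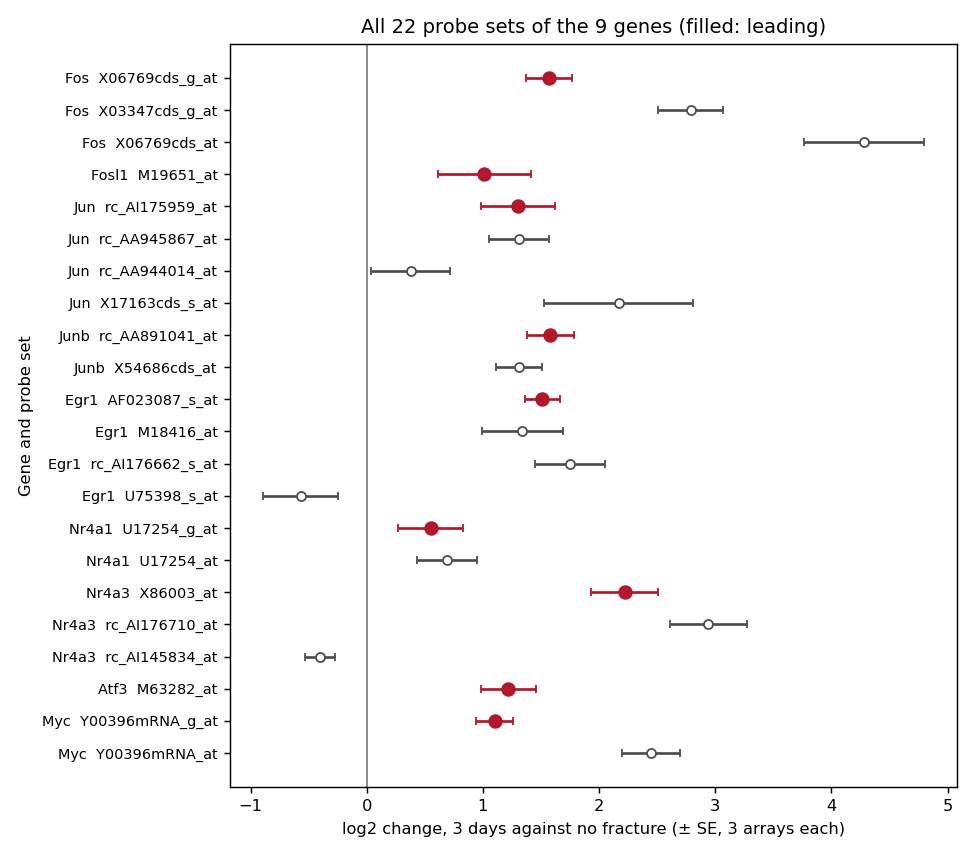
log2 change at 3 days against no fracture (horizontal axis, ± SE, 3 arrays on each side) for the 22 probe sets of the 9 genes (vertical axis), with filled red points for the leading probe set of each gene and open points for the others. Of these, 16 were called higher, and U75398_s_at of Egr1 and rc_AI145834_at of Nr4a3 lie below 0.

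The age comparisons asked whether older rats differ from young ones in these genes. Over all 6 times, 0 of the 9 genes were called in older against young rats (background 0.549% of genes in either direction) and 0 in adult against young rats (0.0845%). Among the leading probe sets, the largest difference between older and young rats was that of Nr4a1, 0.56 on the log2 scale (SE 0.20, adjusted p = 0.23, 95% interval 0.12 to 1.00). The dimmer Nr4a3 probe set rc_AI176710_at stood at 0.81 (adjusted p = 0.15), where the leading one of Nr4a3 stood at -0.18. Fos differed by 0.34 (95% interval 0.03 to 0.65, adjusted p = 0.30), and Egr1 by 0.09 (-0.14 to 0.32). Myc was at -0.04 with an interval of -0.28 to 0.21. Over the 3 ages, limma's F test called none of the 9 genes (0.0422% of genes).

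At 4 and 6 weeks Fos, Jun, Atf3, Nr4a1 and Egr1 had higher signals in older than in young rats at both times, without passing the test. Fos had 1885 and 2083 at 4 and 6 weeks in older rats, 1595 and 1765.5 in adult rats, and 1041 and 1356.5 in young rats. Both older values were above both young ones, and the difference between older and young rats was 0.74 (SE 0.16, adjusted p = 0.093). Jun had 1265 and 1472 in older rats, against 566 and 814 in young rats, a difference of 1.01 (SE 0.22, adjusted p = 0.10). Atf3 had 449.6 and 417 in older rats, against 274 and 197 in young rats, a difference of 0.90 (SE 0.16, adjusted p = 0.074). None of these passed in a fit with 4 residual degrees of freedom, and 0 of 9 genes were called (background 1.29%). Fos, Jun and Atf3 had intervals of 0.33 to 1.14, 0.43 to 1.58 and 0.48 to 1.31 before adjustment. With probe sets of a mean signal under 200 left out of the adjustment, these same 3 genes passed. Nr4a1 stood at 0.61 (adjusted p = 0.22) and Egr1 at 0.34 (adjusted p = 0.28), while Nr4a3 stood at 0.16 and Junb, Myc and Fosl1, the last at the floor, lay within 0.05 of 0. The dimmer rc_AI176710_at of Nr4a3 stood at 1.19 (adjusted p = 0.14). Among the other Jun probe sets, rc_AA945867_at and X17163cds_s_at stood at 1.07 and 0.84, and rc_AA944014_at at -0.01. One probe set was called, X03347cds_g_at of Fos, with 834 and 608 in older rats, against 296 and 282 in young rats, a difference of 1.30 (SE 0.12, adjusted p = 0.031, where 1.24% of all probe sets were called).

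The make-up of the segment differed between these ages too. The 5 cartilage markers summed to 6619 and 8775 at 4 and 6 weeks in older rats, against 4299 and 735 in young rats, with a median difference of 1.65 and 1 of 5 called higher. The 3 measured neutrophil markers summed to 3398 and 5262, against 15032 and 30226 (median -2.41), and the 5 erythroid markers to 27904 and 23268, against 39461 and 47397 (median -0.88), with none called in either list. The actin ratio was 1.79 and 1.89 in older rats, against 1.90 and 2.72 in young rats. With that ratio as a covariate the differences of Fos, Jun and Atf3 were 0.85, 1.02 and 0.73 (adjusted p = 0.38, 0.44 and 0.41). The part of the markers in these differences was not tested.

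At 1 and 2 weeks, 0 genes were called in older against young rats (background 0.00%). Junb differed by 0.56 (adjusted p = 0.35) and Jun by -0.21 (adjusted p = 0.85). The second Junb probe set stood at -0.18 (adjusted p = 0.90), and rc_AI176710_at of Nr4a3 at 1.09 (adjusted p = 0.35). At 3 days the older rats had lower signals than the young ones for Fos, Fosl1, Jun, Junb, Egr1, Nr4a1, Nr4a3 and Atf3, with differences from -0.09 (Nr4a1) to -0.65 (Nr4a3) on the log2 scale, and a higher signal for Myc, with 0.12. These are single arrays with no test. The interaction, which asks whether the difference between older and young rats after fracture departs from that with no fracture, called 0 of 9 genes (background 2.89%). It was 0.31 for Fos (95% interval -0.52 to 1.15) and -0.97 for Nr4a1 (-2.07 to 0.13). In the same fit 5 of the 7 markers of fibroblasts and osteoblasts were called higher, with a median of 2.13. The part of these markers in the values of the 9 genes was not tested.

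**Figure D4:**
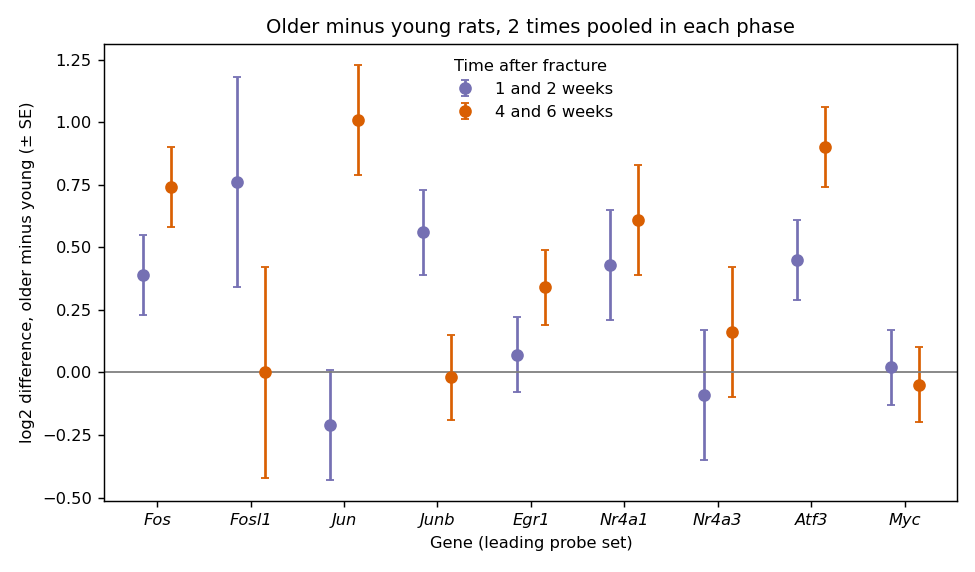
Difference in log2 signal between older and young rats (vertical axis, ± SE) for the leading probe set of each gene (horizontal axis), at 1 and 2 weeks together (purple) and at 4 and 6 weeks together (orange), 2 arrays of each age per point. Jun (1.01), Atf3 (0.90), Fos (0.74) and Nr4a1 (0.61) stand highest at 4 and 6 weeks, and none passed.

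Close relatives of these factors were read as well. Egr2, like Egr1 a zinc finger factor, was called higher at all 5 times, with changes of 1.56, 1.09, 1.20, 1.00 and 1.51. Its signals at 3 days were 247, 146.5 and 137 in young, adult and older rats, against 57.6, 86.2 and 39.0 with no fracture. Mycn fell by 0.91 at 3 days (adjusted p = 0.019), where all 3 signals lay below the floor of 20, so the floor set that size. Fosl2 stood at -0.61 (adjusted p = 0.26), Egr4 at -0.10 (adjusted p = 0.70) and Nr4a2 at -0.32 (adjusted p = 0.34), none of them called at any time. Jund was dim, Egr3 and Mycs lay at or below the floor on nearly every array, and none of these was called. So of the relatives named in this paragraph, Egr2 alone was called higher.

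The factors that partner, induce or follow these genes gave mixed counts at 3 days. Of 13 measured genes of the wider AP-1 and CREB families, 3 were higher and 2 lower, where 20% and 21.9% of all genes were. Jdp2, which pairs with Jun, rose by 1.88 (adjusted p = 0.021), and Ddit3, a factor of the unfolded protein response, fell by 1.27 (adjusted p = 0.0066). Of 46 other immediate early genes, 18 were higher and 5 lower. The cytokine Il6 rose by 5.06 (adjusted p = 1.9e-05), with 416, 575 and 1252.5 at 3 days in young, adult and older rats, against signals below the floor at all 3 ages with no fracture, so the floor set its base. The chemokine Ccl2 rose by 3.12 and the cytokine-signalling inhibitor Socs3 by 1.95 (adjusted p = 1.9e-05 and 0.00051). Of 15 genes of the MAP kinase and serum response pathway, upstream of Fos and Egr1, 2 were higher and 7 lower. Nras rose by 1.48 (adjusted p = 0.00014), and the p38 kinase gene Mapk14 fell by 1.21 (adjusted p = 0.00076).

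Of 22 measured AP-1 target genes, 13 were higher and 1 lower at 3 days, with a median change of 0.98, where 20% of all genes were higher and 21.9% lower. The protease inhibitor Timp1 had 6806, 6903 and 6392 at 3 days in young, adult and older rats, against 1170.0, 775 and 526 with no fracture, a change of 3.10 (adjusted p = 1.9e-05). The gap junction gene Gja1 was called higher (adjusted p = 0.0010), with 610.4, 536 and 702 at 3 days against 122, 13.6 and 13.9 with no fracture. Its adult and older intact signals lay below the floor, so the floor set the size of that change. The neutrophil collagenase Mmp8 was the gene called lower (adjusted p = 0.00043), with 153, 7.3 and 35.8 at 3 days against 445, 467 and 744. Its adult 3-day signal was below the floor. The measured neutrophil markers were low at 3 days too, and their part in the change of Mmp8 was not tested. The count of AP-1 targets called higher was 13 at 1 week, 13 at 2 weeks, 9 at 4 weeks and 10 at 6 weeks, against 18.4%, 16.2%, 12.3% and 8.74% of all genes, and 2, 4, 2 and 0 were lower, against 19.6%, 18.3%, 11.0% and 8.78%. Of 16 Myc partners and targets, 6 were higher and 6 lower at 3 days. Mxi1, an antagonist of Myc, fell by 1.87 (adjusted p = 6.7e-05), and Mxd4, another antagonist, rose by 3.43 (adjusted p = 0.0088). Of 16 heat shock genes, 3 were higher and 3 lower, near the shares of all genes, with the collagen chaperone Serpinh1 up by 3.62 (adjusted p = 0.0013) and the small heat shock gene Hspb6 of muscle having a change of -3.22 (adjusted p = 5.2e-05).

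Across the 18 arrays, the 36 pairs among the 9 leading probe sets had Pearson correlations from 0.16 (Jun and Fosl1) to 0.92 (Egr1 and Fos), with a median of 0.61. Among 2484 other genes with a mean signal of at least 200, the gene most like Fos was Egr1 (r = 0.921), followed by S100a4 (0.914). Jun was most like the glucose transporter Slc2a1 (0.924) and the factor Klf4 (0.920), Junb most like Csrp2 (0.933), Atf3 most like the kinase Sgk1 (0.929), and Myc most like Ripk3 (0.901). Nr4a1 had the lowest best match, Psmb1 (0.806). These arrays share the time course and the scaling, so the values describe likeness of profile.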

How the data were processed

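RNA from the femoral mid-shaft was read on 18 arrays, 1 per age and time. The deposited values are signal intensity, which the authors computed with Affymetrix Microarray Suite 5.0 from perfect match and mismatch probes and scaled to a target of 500 per array. The trimmed mean of each array was checked and lay between 500.7 and 500.8. Array signals have no sequencing depth, and the number of arrays limits the precision. On each array 12.2% to 20.1% of probe sets lay below a signal of 20.

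Of 8799 probe sets, 59 controls were left out and 8740 tested. The platform annotation gave 7006 of them 1 symbol, 308 several and 1426 none. Values under 20 were set to 20 before log2, and neither a second normalization nor a filter was applied. Fits were made in limma 3.58.1 (R 4.3.3) with empirical Bayes moderation and a trend: time and age as additive factors (10 residual degrees of freedom), age nested in phase (4) and age by fracture (8). Adjusted p is Benjamini-Hochberg over 8740 probe sets, called below 0.05, two-sided. Intervals are 95% and unadjusted. All 9 genes are named with all their probe sets, together with up to 4 measured genes per list with the largest change at 3 days, relatives of the 9 and the 2 most similar genes. The members, lists and tests were chosen with earlier results of these data known. The scripts were tested on simulated data. Alternatives were other scalings, floors and filters, the moderation, the probe set used, the actin ratio, the arrays fitted, the age term, each age or time left out and the methods' t-test. Promoter and gene tables were those of RefSeq (GRCr8).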

Additional observations from a re-analysis of the deposited data

How the results depend on the processing

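No called change in the 9 genes turned its direction under the alternatives run, although a floor of 100 set those of Fosl1 against 3 days to 0.00. Of 42 such results, the alternatives gave 409 values on the same side of the threshold and 158 that no longer passed. Of 84 results that were not called, the alternatives gave 50 values of the other sign, none of them called. The median change of all genes at 3 days was -0.10 as deposited, -0.02 with quantile normalization and -0.04 with median centring. Both scalings called 8 of the 9 genes at 3 days, the added one being Fosl1. At 4 weeks 54.3% of all calls were higher as deposited and 45.7% with median centring.

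The number of genes called changed as follows. Fitted with the 6 arrays of the times compared, it was 4 at 3 days, 1 at 1 week and 0 at 2, 4 and 6 weeks, with fewer residual degrees of freedom. With the actin ratio as a covariate it was 2 at 1 week, 1 at 2 weeks and 0 at 4 weeks against no fracture, and 1 at 6 weeks against 3 days. The methods' t-test, run at an unadjusted 0.005, a threshold borrowed from a different test, gave 2 at 1 week, 1 at 2 weeks, 0 at 4 weeks and 1 at 6 weeks, and after Benjamini-Hochberg 3, 1, 0 and 0. Median centring gave 0 at 4 weeks, 5 at 2 weeks against 3 days and 1 (Atf3) for older against young rats at 4 and 6 weeks. Quantile normalization gave 5 at 2 weeks against 3 days. A filter at a mean signal of 200 gave 1 at 1 week against 3 days and 3 (Fos, Jun and Atf3) for the older rats at 4 and 6 weeks. The mean of all probe sets gave 0 at 1 week against 3 days and 1 (Fos) for the older rats, and log2(signal + 50) gave 1 (Jun). The cause of these shifts was not tested.

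With each age left out in turn, the count ranged from 6 to 7 at 3 days, 2 to 7 at 1 week, 1 to 6 at 2 weeks, 0 to 4 at 4 weeks and 0 to 3 at 6 weeks. Against 3 days it ranged from 0 to 0, 0 to 1, 2 to 3 and 1 to 3. The labels give no replicate numbers, so age was the block. Without the age term (no replicate block) the counts were 7, 7, 5, 2 and 2 against no fracture and 2, 3, 6 and 6 against 3 days. Leaving out any one time gave 0 for older or adult against young rats. With 1 array per age and time, a difference between ages at a single time had no test.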

Other observations

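One further probe set, U75397UTR#1_s_at, has no symbol in the annotation used here, while the study's own tables name it Krox-24, another name of Egr1. Its signals at 3 days were 1992.5, 1476 and 1341 in young, adult and older rats, against 666, 661 and 731 with no fracture. The change was 1.21 (SE 0.15, adjusted p = 0.00012) by limma, and it was called at 1, 2 and 6 weeks as well (0.41, 0.65 and 0.64). Against 3 days it fell by 0.79 on the log2 scale at 1 week (adjusted p = 0.014). It was looked up after the values of the other Egr1 probe sets had been seen.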
